A study of Mus musculus with 4 samples.

Results

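The mRNAs of the proteasome, the protease complex that degrades ubiquitin-tagged proteins, were examined for their representation in ribosome-bound RNA of cultured mouse cortical neurons. Members were the protein-coding genes whose GENCODE M21 symbol begins with Psm, one of the letters a to g, and a digit. This rule found 50 of the 31053 genes in the count tables. Of these, 44 passed the filter on low counts and 6 did not. All 4 libraries of the series were used. They came from wild-type (WT) primary cortical neurons, which the study's methods describe as dissected from late C57BL/6J embryos. In 2 libraries, RNA was crosslinked to protein, trimmed with RNase I and pulled down with an antibody against endogenous RPS2, which sits in the small subunit of the ribosome. This procedure is called enhanced crosslinking and immunoprecipitation (eCLIP), and these libraries are called the IP. The other 2 hold unselected total RNA, which the study's methods take from the samples ahead of the immunoprecipitation. Equal replicate numbers were assumed to mark the same sample. On that basis IP 1 and total RNA 1 form pair 1, and IP 2 and total RNA 2 form pair 2. By the labels, rRNA was depleted from the IP libraries whereas total RNA was not treated. The study's methods mention rRNA removal on finished libraries and do not restrict it to the IP. Should the IP alone have been depleted, an effect of that step cannot be told apart from the IP. Nothing states that the replicates were separate cultures. The p-values of the paired fit measure how far the pairs disagree in their ratio, pooled over genes. They do not measure the spread between replicates or cultures.

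The proteasome is built from a barrel and a lid-like cap. The barrel, or 20S core, stacks rings of alpha subunits (Psma genes), which gate the entrance, and beta subunits (Psmb genes), some of which cut the peptide chain. The 19S regulatory particle consists of ATPases (Psmc genes), which unfold the substrate and push it into the barrel, and non-ATPase subunits (Psmd genes), which bind and remove ubiquitin. Other members of the family open the barrel without ATP (Psme genes), inhibit it (Psmf1) or help to assemble it and are absent from the finished particle (Psmg1 to Psmg4 and the chaperones Psmd5, Psmd9 and Psmd10). In neurons, proteasomes turn over synaptic proteins, and their subunits are needed in fixed proportions.

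The IP libraries held 16460545 and 9941486 counts, and the total RNA libraries 5281196 and 4899718. The summed neuronal markers ranged from 4064 to 4591 CPM (counts divided by the effective library size and scaled to a common total) over the 4 libraries. Astrocyte markers summed to 3625 and 2961 CPM in IP 1 and total RNA 1 against 1556 and 1412 CPM in pair 2, and microglial markers to 158 and 171 CPM against 11.3 and 9.04 CPM in pair 2. Markers of glia were thus present beside those of the labelled neurons, and their sums were higher in pair 1. Of the 8 astrocyte and the 10 microglial markers, 0 were at zero in every library. The microglial P2ry12, Tmem119 and Aif1, however, had 0 counts in both libraries of pair 2. In IP 1 and total RNA 1 they had 2 and 2, 3 and 6, and 4 and 3 counts. The summed oligodendrocyte lineage markers ranged from 66.4 to 89.0 CPM, but the genes of this list went in different directions. Mbp had 35.6 and 32.7 CPM in IP 1 and total RNA 1 and 44.3 and 41.1 CPM in pair 2. Cspg4 had 20.8 and 24.5 CPM in pair 1 and 4.94 and 5.75 CPM in pair 2. Mag had 11 and 5 counts in pair 1 and 0 in both libraries of pair 2. Mog had 1 count in total RNA 1 and 0 elsewhere. Of the 4 endothelial markers, Cldn5 was at zero in every library, and the list summed to at most 1.78 CPM.

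Of the family, 7 genes were higher in the IP than in total RNA, and 0 were lower. They were the core subunits Psma1, Psma2, Psma5 and Psmb4, the activator Psme3, the inhibitor Psmf1 and the chaperone Psmd10, that is 15.9% of the 44 tested (edgeR quasi-likelihood test with the replicate number as a block, adjusted p under 0.05). Over all 12336 genes tested, 6.63% were called higher and 7.55% lower (818 and 931 genes, or 283 and 878 with scaling by library size alone). No member of the regulatory particle was among the 7. With the block each gene had 1 residual degree of freedom and all genes shared one trend of dispersion. The calls rest on the pairing: without the block, edgeR called 0 of the 44 members and 0 of all genes, with 349 of all genes at an unadjusted p under 0.05. With the block, DESeq2 also called 0 members.

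Most members had a ratio slightly above 1. The median log2 ratio of IP over total RNA was 0.22, a 1.16-fold difference, beside 0.011 over all genes. The fitted ratio was positive for 39 members and negative for 5, which is 88.6% positive beside 51.3% of all genes. The ratio was positive in both pairs for 27 members (61.4%, beside 34.3% of all genes) and negative in both for 5 (11.4%, beside 32.2%). The separation of the raw levels was less marked. Both IP libraries lay above both total RNA libraries for 8 members (18.2%), close to the 16.9% of all genes, and below both for Psmc3 and Psmd3, beside 14.9% of all genes. The ratios had an SD of 0.38 across members and 0.42 across all genes. When GC content and exonic length were corrected for, 30 members had a positive ratio, their median was 0.099 beside -0.005 for all genes, and 3 were called (Psmd10, Psme3 and Psmf1). With scaling by library size alone, 32 were positive and the median was 0.13 beside -0.073 for all genes. In fits without the block that left out IP 2 or total RNA 1, the members' median was -0.008 and -0.011. Without IP 1 or total RNA 2 it was 0.38 and 0.44.

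**Figure D1:**
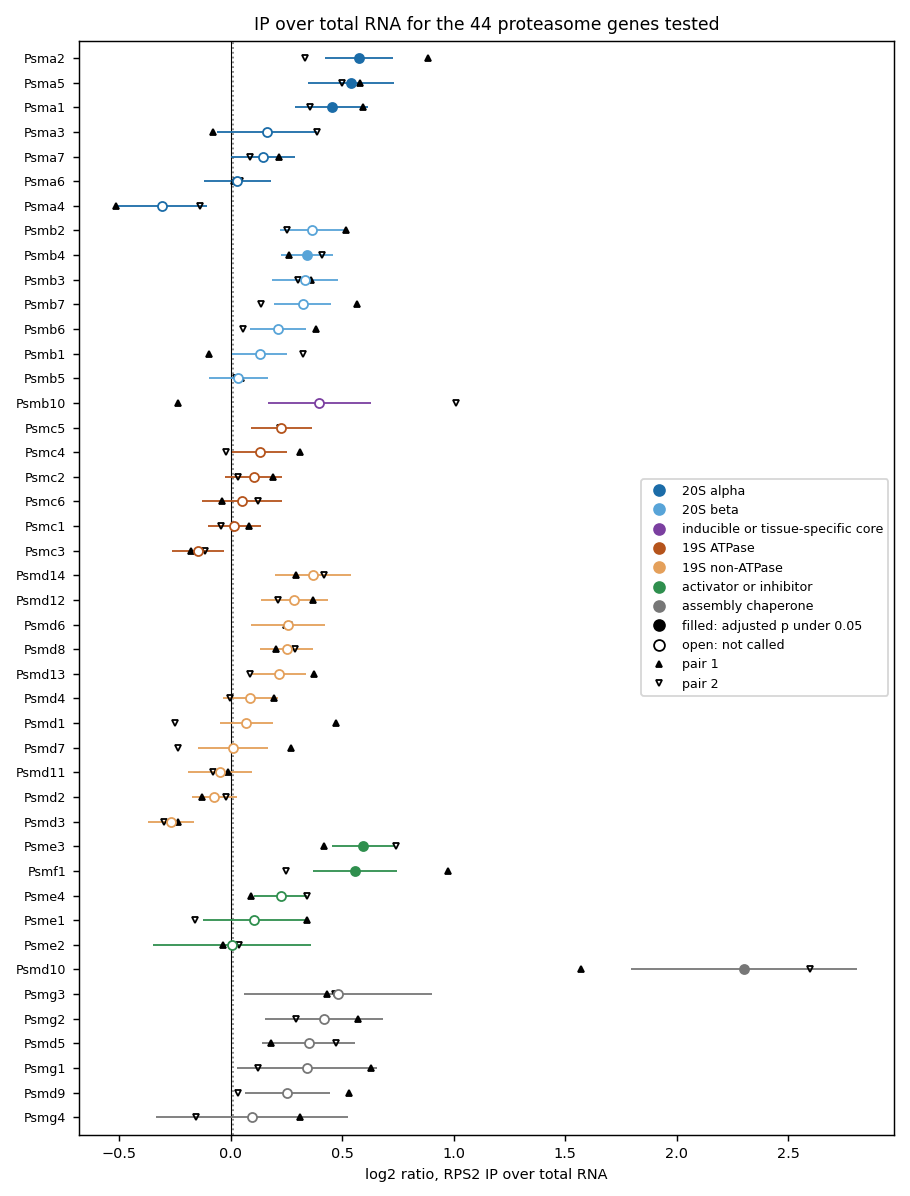
Fitted log2 ratio of RPS2 IP over total RNA for each of the 44 genes tested, by class. Circles give the fitted ratio with its SE, triangles the ratio in each pair, the dotted line the median of all genes (0.011). The 7 filled circles are the genes called higher, and Psmd10 at 2.30 lies to the right of every other gene.

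The largest ratio in the family was that of Psmd10 (ENSMUSG00000031429, mm10 chrX:140948429-140956728), which encodes gankyrin, a chaperone that helps to assemble the ATPase base. It had 61 and 57 counts in the IP, against 6 and 4 counts in total RNA, or 4.41 and 5.12 CPM against 1.34 and 0.658 CPM. Both IP values were thus above both total RNA values. The fitted log2 ratio was 2.30 ± 0.51 (SE), a 4.93-fold difference with an edgeR adjusted p of 0.000194. The fold was 3.30 in pair 1 (exact 95% counting interval 1.43 to 9.34) and 7.79 in pair 2 (2.88 to 29.6). Because total RNA gave so few reads, the size of the ratio is known only within these wide limits. Psmd10 also had the lowest level of the 44 in total RNA, 0.679 CPM per kb of exon, but in the IP it reached 3.24 CPM per kb, above the mean IP level of Psmg3 (1.32) and Psmd5 (2.20).

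The next highest ratio was that of Psme3 (ENSMUSG00000078652, chr11:101316213-101323537), the nuclear activator PA28 gamma. Its level was 33.4 and 44.9 CPM in the IP and 24.9 and 26.8 CPM in total RNA, again without overlap. The fitted log2 ratio was 0.60 ± 0.14, with an adjusted p of 0.000759 (edgeR with the block). Psmd10 and Psme3 were also among the genes called when GC content and gene length were corrected for and when libraries were scaled by their size alone. Their promoters are shown because they were the 2 members called under both of these changes, each made alone. Each sequence is the 150 bases upstream of the gene start in RefSeq on GRCm38.p6 (in GENCODE M21 the gene Psmd10 starts earlier, and the last 17 bases of its sequence lie in its counted exon), read 5′ to 3′ on the gene's own strand (chrX:140956712-140956861, minus strand, and chr11:101316063-101316212, plus strand). Capitals mark matches to the letters CCAAT (written ATTGG where the match is on the opposite strand), to the ETS letters CCGGAAG and to the CRE-like letters TGACG, each sought on both strands.
Psmd10: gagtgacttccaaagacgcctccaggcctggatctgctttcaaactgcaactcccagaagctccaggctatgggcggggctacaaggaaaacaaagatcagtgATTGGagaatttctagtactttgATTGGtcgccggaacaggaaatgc
Psme3: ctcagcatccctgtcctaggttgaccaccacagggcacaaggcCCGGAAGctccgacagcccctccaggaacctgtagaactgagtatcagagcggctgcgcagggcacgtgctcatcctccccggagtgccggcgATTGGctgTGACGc

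Both promoters held CCAAT, a box common to many promoters. In the 250 bases upstream of the start, 15 of the 42 members with a RefSeq promoter held CCAAT (35.7%), about the share of all promoters (34.5%). CCGGAAG, the core letters bound by ETS factors, occurred in 12 members (28.6%) beside 7.05% of all promoters, and TGACG in 15 (35.7%) beside 17.9%. The antioxidant response letters TGACNNNGC, which overlap TGACG where the next letter is G, occurred in 5 (11.9%) beside 10.1%. The 11 tested members with CCGGAAG had a median log2 ratio of 0.10, and the 26 without it one of 0.24. Those 11 were Psmc1, Psmc2, Psmc6, Psmd2, Psmd4, Psmd6, Psmd11 and Psmd12 of the regulatory particle, with Psme3, Psme4 and Psmg1. No core gene was among them, and the median was 0.32 for the core and 0.088 for the regulatory particle. The letters and the class thus cannot be told apart here. The shares of all promoters cover 27025 genes, whether or not they were tested here, and the share among the genes tested was not computed. The match is a description of letters and not of binding.

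Of the 7 alpha subunits, 3 were higher in the IP. Psma2 (ENSMUSG00000015671, chr13:14613240-14674236) had 29.4 and 34.6 CPM in the IP and 15.8 and 27.5 CPM in total RNA, with both IP values above both total RNA values. Its log2 ratio was 0.57 ± 0.15 (edgeR adjusted p = 0.00306). Psma5 (ENSMUSG00000068749, chr3:108256926-108279974) had 13.7 and 25.0 CPM in the IP and 9.13 and 17.6 CPM in total RNA. The groups overlapped, since total RNA 2 lay above IP 1, but the IP was higher within each pair. Its log2 ratio was 0.54 ± 0.19 (edgeR adjusted p = 0.0402). Psma5 is uncertain because 76.5% of its longest transcript matched the processed pseudogene Gm8394 at 98% identity or more, and reads with several loci were not counted. Psma1 (ENSMUSG00000030751, chr7:114264606-114276118) had 18.9 and 33.7 CPM in the IP and 12.5 and 26.3 CPM in total RNA, with the same kind of overlap. Its log2 ratio was 0.45 ± 0.16 (edgeR adjusted p = 0.0424), near the threshold.

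The alpha subunits did not move as one. Psma4 had the lowest ratio of the family, with 9.90 and 17.6 CPM in the IP and 14.3 and 19.4 CPM in total RNA. The IP was below total RNA within each pair, by log2 ratios of -0.52 and -0.14, and the fitted value of -0.31 ± 0.20 did not pass the test (edgeR adjusted p = 0.339). The exact counting interval of its fold excluded 1 in pair 1 but not in pair 2. The other 3 alpha subunits had ratios of 0.16 (Psma3), 0.14 (Psma7) and 0.03 (Psma6). The median over the 7 alpha genes was 0.16.

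Among the beta subunits, Psmb4 (ENSMUSG00000005779, chr3:94884093-94886961), a structural subunit without catalytic activity, was the one called. It had 53.6 and 84.6 CPM in the IP and 44.8 and 63.6 CPM in total RNA, overlapping between groups and higher in the IP within each pair. Its log2 ratio was 0.34 ± 0.12 (edgeR adjusted p = 0.0297). All 7 beta genes had a positive ratio, from 0.03 for Psmb5 to 0.37 for Psmb2, with a median of 0.32. Psmb2, Psmb3 and Psmb7 had ratios of 0.37, 0.33 and 0.32 without passing the test, with edgeR adjusted p of 0.0739, 0.122 and 0.0752.

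**Figure D2:**
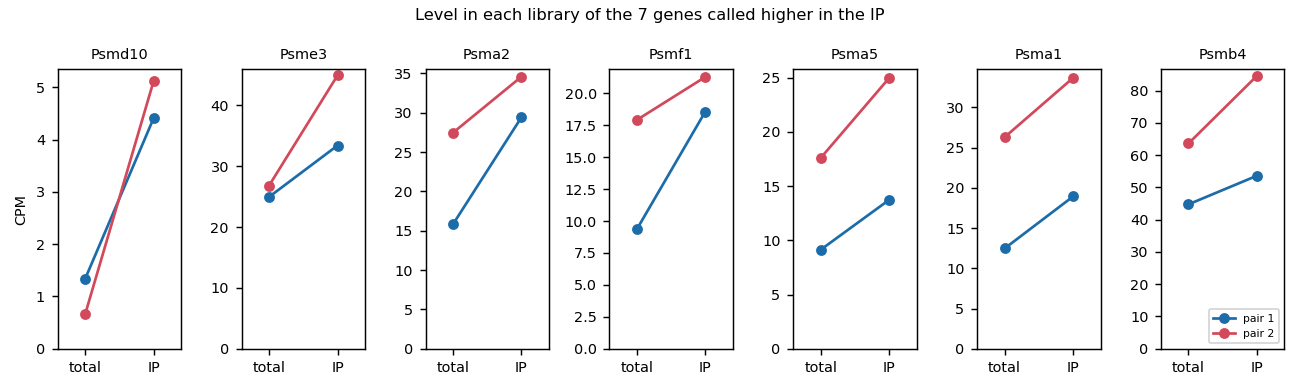
Level in CPM of the 7 genes called higher in the IP, in total RNA (left) and IP (right), with a line for each pair and axes that start at 0. Each line goes up, and pair 2 starts above pair 1 in all genes but Psmd10.

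The catalytic subunits exist in a constitutive and an inducible form, the latter replacing the former in the immunoproteasome of immune cells and after interferon. The constitutive Psmb5 (chymotrypsin-like activity) had 34.5 and 41.1 CPM in the IP and 33.4 and 40.4 CPM in total RNA, a log2 ratio of 0.03 ± 0.13. Psmb6 (caspase-like) had 48.3 and 49.8 CPM in the IP and 37.0 and 47.8 CPM in total RNA. Psmb7 (trypsin-like) had 39.0 and 55.1 CPM in the IP and 26.3 and 50.1 CPM in total RNA. None of these passed the test. Psmb5 is the most exposed to uncounted reads of the genes tested, since 88.4% of its longest transcript matched the processed pseudogene Gm3375. Its counted exons also hold the small RNA Mir686, shown here because reads from that RNA, where placed uniquely, would be counted with Psmb5. The stretch of Mir686 lies within the part that matches Gm3375, so such reads may also have been left uncounted. The mature RefSeq sequence of Mir686 on GRCm38.p6 (chr14:54616746-54616767, minus strand) has its seed, bases 2 to 8, in capitals.
mmu-miR-686: aUUGCUUCccagacggugaaga

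The inducible forms were rare. Psmb8, the counterpart of Psmb5, had 15 and 6 counts in the IP, against 6 and 1 counts in total RNA. Psmb9, the counterpart of Psmb6, had 9 and 12 counts in the IP, against 10 and 1 counts in total RNA. Neither passed the filter. Psmb10, the counterpart of Psmb7, was the exception, with 10.6 and 15.4 CPM in the IP and 12.5 and 7.56 CPM in total RNA. The pairs went in opposite directions for Psmb10, with log2 ratios of -0.24 and 1.01, and the fitted 0.40 ± 0.23 did not pass the test (edgeR adjusted p = 0.274). The counting interval of its fold was 0.618 to 1.17 in pair 1 and 1.47 to 2.89 in pair 2. In total RNA, Psmb10 was lower in replicate 2 than in replicate 1 by a log2 difference of -0.71, whereas in the IP it was higher by 0.54. The microglial marker sum was also lower in replicate 2, as given above, in both kinds of library. Its part in these values was not tested.

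Of the other core genes, Psma8, the alpha subunit of spermatocytes, had 0 counts in all 4 libraries, and Psmb11, the thymus subunit, had 2 counts in IP 1 and 0 elsewhere. A count of 0 allows a level of up to 0.217 and 0.269 CPM in IP 1 and IP 2 and 0.667 and 0.492 CPM in total RNA 1 and 2, on counting error only. Neither gene was detectable at this depth in total RNA. Psme2b, of which 94.9% matches Psme2, had 3 and 1 counts in the IP, and total RNA had 0. Psmc3ip, a meiotic recombination protein that shares only its letters with the family, had 14 and 5 counts in the IP, against 3 and 0 counts in total RNA.

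None of the 17 members of the regulatory particle was called in either direction. Its median log2 ratio was 0.088, beside 0.32 for the 15 core genes tested and 0.011 for all genes. Its ratios spanned -0.27 to 0.37, with 13 positive (76.5%, beside 51.3% of all genes) and 4 negative. The ratio was positive in both pairs for 7 of the 17 (41.2%) and for 11 of the 15 core genes (73.3%), beside 34.3% of all genes. In pair 1 the medians were 0.26 for the core and 0.20 for the regulatory particle, and in pair 2 they were 0.30 and -0.005. Taking every Psmc and Psmd gene by symbol, chaperones included and Psmc3ip excluded by the filter, the median of the 20 tested was 0.12.

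The summed levels gave the same order. The core sum was 419 and 583 CPM in the IP and 352 and 492 CPM in total RNA, and the regulatory sum was 844 and 1067 CPM in the IP and 813 and 1086 CPM in total RNA. A large part of the regulatory sum came from Psmd2 and Psmd3, with fitted log2 ratios of -0.074 and -0.27. Psmd2 had 169 and 247 CPM in the IP and 185 and 250 CPM in total RNA. For Psmd3 these were 117 and 135 CPM and 138 and 166 CPM. Sums without these genes were not computed. The core sum divided by the regulatory sum was 0.496 and 0.546 in the IP, against 0.434 and 0.454 in total RNA. Both IP values lay above both total RNA values. An exact permutation test of 2 against 2 libraries cannot go below p = 0.333 two-sided, which was the value found, so the difference between core and regulatory particle was not established by a test.

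**Figure D3:**
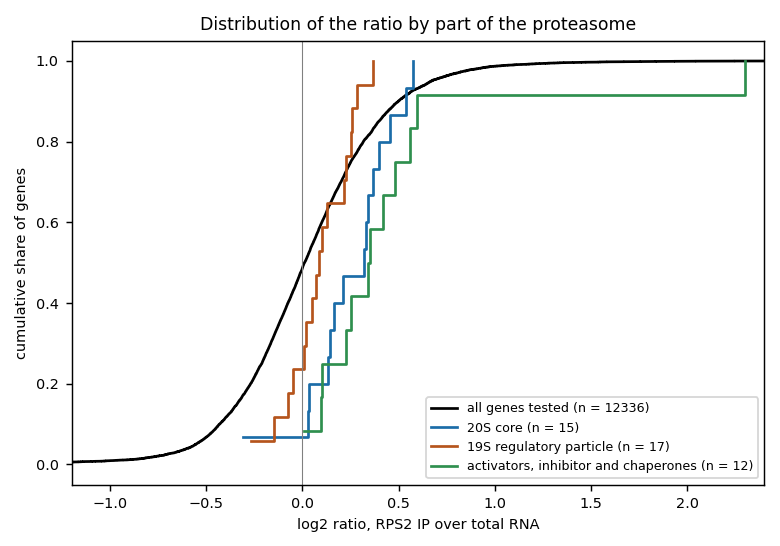
Cumulative share of genes at or below each log2 ratio of IP over total RNA, for all 12336 genes and for the parts of the proteasome. The curve of the 17 regulatory particle genes is the steepest and crosses that of all genes, whereas the core and the combined activators, inhibitor and chaperones lie to the right of it over most of their range. The axis ends just past Psmd10, at 2.30.

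The ATPases differed little among themselves, with an SD of 0.13 of the log2 ratio, as for the beta subunits. Their ratios ranged from -0.15 for Psmc3 to 0.23 for Psmc5, with a median of 0.076 over 6 genes. Psmc5 had 34.3 and 42.3 CPM in the IP and 29.2 and 36.3 CPM in total RNA, a ratio of 0.23 in pair 1 and 0.22 in pair 2 (edgeR adjusted p = 0.298). Psmc3 had 58.6 and 56.3 CPM in the IP and 66.4 and 61.0 CPM in total RNA, both IP values below both total RNA values (edgeR adjusted p = 0.456).

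The non-ATPase subunits ranged from -0.27 for Psmd3 to 0.37 for Psmd14, with a median of 0.088 over 11 genes. Psmd3 had 117 and 135 CPM in the IP and 138 and 166 CPM in total RNA, both IP values below both total RNA values. Its log2 ratio of -0.27 ± 0.10 came near the threshold without passing it (edgeR adjusted p = 0.0599), and its fold had counting intervals below 1 in pair 1 (0.772 to 0.931) and pair 2 (0.751 to 0.882). Psmd14, the lid enzyme that removes ubiquitin chains, had 17.8 and 27.9 CPM in the IP and 14.5 and 20.9 CPM in total RNA (edgeR adjusted p = 0.141). Psmd1 and Psmd7 changed sign between pairs. The ratio of Psmd1 was 0.47 in pair 1 and -0.25 in pair 2, and that of Psmd7 was 0.27 and -0.24. These last genes were named after their values were seen.

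The activators and the inhibitor had a median of 0.22 over 5 genes, and 2 of the 5 were called. Besides Psme3, this was Psmf1 (ENSMUSG00000032869, chr2:151715812-151744186), which binds the core and inhibits it in vitro. Psmf1 had 18.6 and 21.3 CPM in the IP and 9.35 and 17.9 CPM in total RNA, without overlap between groups. Its log2 ratio was 0.56 ± 0.19 (edgeR adjusted p = 0.0274), and it came mostly from pair 1, with 0.97 against 0.25 in pair 2. Psme4, the large nuclear activator, had a log2 ratio of 0.22 with an edgeR adjusted p of 0.210. Psme1 and Psme2, which together form the interferon-induced activator, had ratios of 0.10 and 0.01. Psme2 had 3.69 and 5.57 CPM in the IP and 3.79 and 5.42 CPM in total RNA, and 82.5% of its longest transcript is shared with Psme2b.

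All 7 assembly chaperones had a positive fitted ratio, from 0.09 for Psmg4 to 2.30 for Psmd10, with a median of 0.35. Psmd10 was the only one called. Psmg3 had 3.69 and 3.95 CPM in the IP and 2.67 and 2.79 CPM in total RNA, with a log2 ratio of 0.48 ± 0.42 (edgeR adjusted p = 0.510). Psmg4 had 4.19 and 2.34 CPM in the IP and 3.34 and 2.63 CPM in total RNA. These were among the least abundant members, and their SEs, 0.42 for Psmg3 and 0.43 for Psmg4, were larger than those of the core genes.

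Levels per length in total RNA ranged from 2.92 to 53.8 CPM per kb of exon among the 31 subunits of the constitutive particle. Over all members tested, the highest means were those of Psmd2 (53.8 CPM per kb of exon), a ubiquitin-receptor scaffold of the base, Psmb5 (41.1) and Psmd3 (30.6). The length is that of all annotated exons together. It was 4967 bases for Psmd3 and 1951 for Psmb4, whose longest transcripts have 2894 and 1183 bases. For Psmb5 both lengths were 899 bases. The order thus depends on the annotation, and the rank of Psmb5 would be lower with the longest transcript as the length. The lowest of those tested were the chaperones Psmd10 (0.679), Psmg3 (0.945) and Psmd5 (1.72). The order was nearly the same in the IP, with a Spearman correlation of 0.98 between the mean log2 levels of the 44 genes, which share libraries and lengths. The ratio was weakly related to the level per kb in total RNA (Spearman -0.37 over 44 genes), to GC content (-0.22) and to length (-0.073). Over all genes these values were -0.15, -0.32 and -0.17. Total RNA is the divisor of the ratio, so its counting error alone pushes the correlation of the ratio with its level below 0. The values of -0.37 and -0.15 therefore do not establish a relation to the level. The ratios in pair 1 and pair 2 had a Spearman correlation of 0.31 across the 44 members, beside 0.40 across all genes, and the Pearson correlation of 0.54 was 0.18 without Psmd10.

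**Figure D4:**
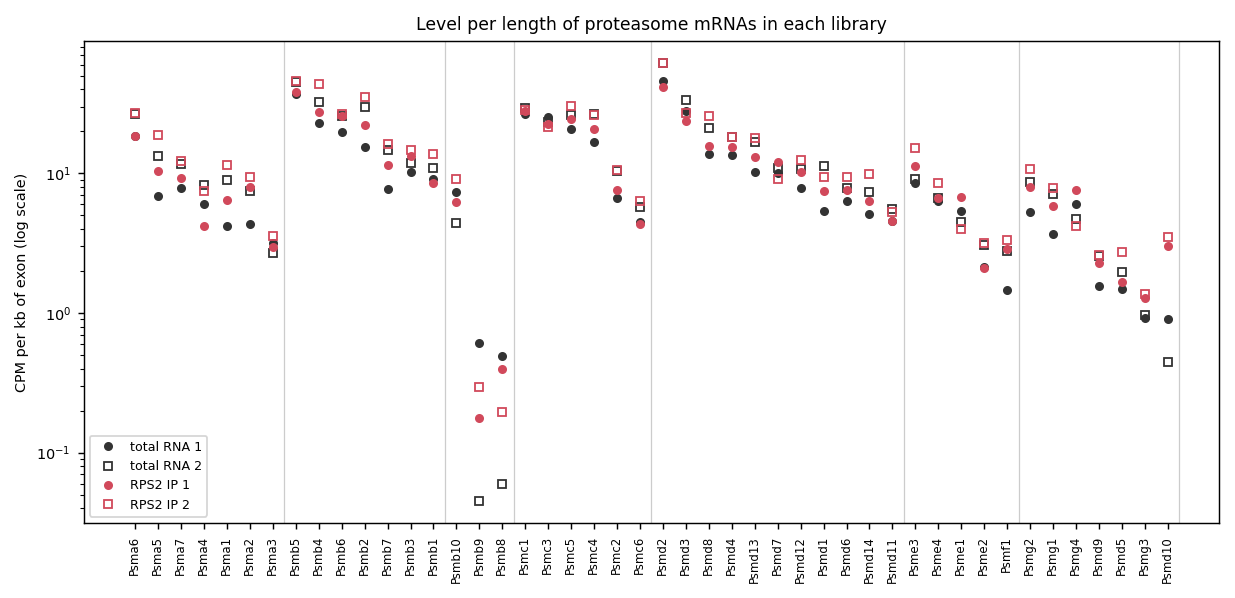
Level per length (CPM per kb of exon, log axis) of each gene with at least 1 count in every library, grouped by class and ordered by the mean in total RNA. Black symbols are total RNA, red symbols IP, filled circles replicate 1 and open squares replicate 2. The inducible Psmb8 and Psmb9 lie below 1 in all libraries, and Psmd10 is the gene at which red and black stand farthest apart.

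Replicate 2 had higher proteasome levels than replicate 1, in both kinds of library. The median log2 difference over the 44 members was 0.34 in the IP and 0.44 in total RNA, beside -0.002 and -0.014 over all genes. It was positive in both for 37 members (84.1%), beside 37.4% of all genes. Summed over the family, the level was 1307 and 1748 CPM in total RNA and 1445 and 1871 CPM in the IP, for replicates 1 and 2. The difference was thus larger than the median ratio of IP over total RNA. Psma1 and Psmd1 were higher in replicate 2 by 1.06 and 1.07 in total RNA, and Psma1 by 0.82 in the IP. Psme1 and Psmg4 went the other way, at -0.25 and -0.32 in total RNA and -0.76 and -0.79 in the IP. With 1 replicate on each side there is no test of this difference. The astrocyte and microglial marker sums were lower in replicate 2, and their part in it was not tested. In bulk RNA, fewer cells of a type and less RNA per cell cannot be told apart.

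**Figure D5:**
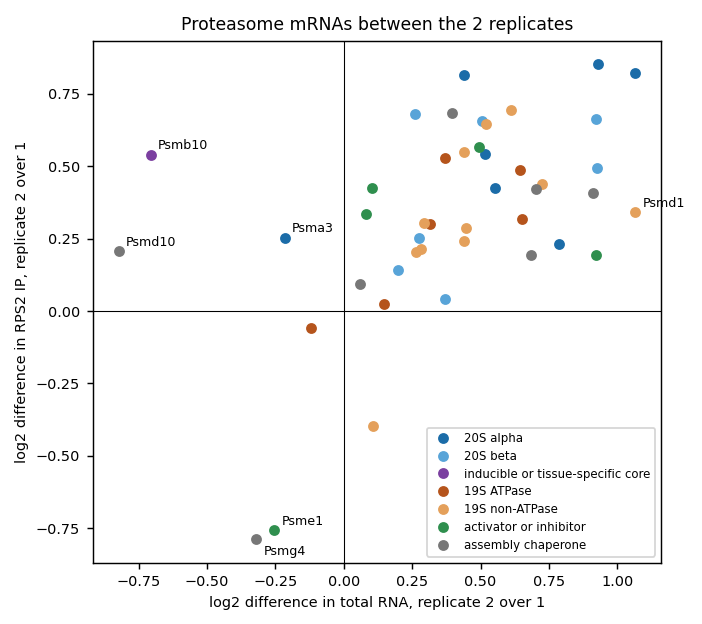
Log2 difference between replicate 2 and replicate 1 for each of the 44 genes, in total RNA (horizontal) and IP (vertical). Of these, 37 lie in the upper right, where both are positive, and Psmb10, Psmd10 and Psma3 lie in the upper left.

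The partners of the proteasome had a median ratio near that of all genes. From a list of 31 receptors, shuttles, deubiquitinases, assembly and transcription factors and ubiquitin genes, 30 were matched and tested, with a median log2 ratio of 0.013, 15 positive and 15 negative. Of these, 2 were called higher (6.67%, beside 6.63% of all genes) and 1 lower (beside 7.55% of all genes), so the share called was near that of all genes, and the 3 are given for their own values. Ubb, which encodes polyubiquitin, had 284 and 248 CPM in the IP and 195 and 244 CPM in total RNA, a 1.21-fold difference (edgeR adjusted p = 0.0395). Ufd1, a cofactor of the segregase VCP, had 22.8 and 24.9 CPM in the IP and 13.6 and 18.7 CPM in total RNA, a 1.47-fold difference (edgeR adjusted p = 0.0123). Ubqln2, a shuttle that carries ubiquitinated proteins to the proteasome, had 332 and 345 CPM in the IP and 380 and 511 CPM in total RNA, a 0.766-fold difference (edgeR adjusted p = 0.00176). Nfe2l1, the transcription factor that drives proteasome genes, had 305 and 270 CPM in the IP and 279 and 297 CPM in total RNA. Pomp, the chaperone of the core, had a log2 ratio of 0.39 with an edgeR adjusted p of 0.0757, and Adrm1, a ubiquitin receptor of the regulatory particle outside the naming rule, had -0.36 with 0.0796. Nfe2l1, Pomp and Adrm1 were named after their values were seen.

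Of the related complexes, the COP9 signalosome, whose subunits resemble those of the lid, had a median of 0.18 over 10 genes with 1 called higher (6.63% of all genes were), and eIF3, the other lid relative, had a median of -0.05 over 13 tested genes with 1 called lower (7.55% of all genes were). These counts are too small to be read against those shares. The chaperonin CCT, another barrel of paired rings, had a median of 0.03 over the 7 genes matched with 0 called in the same edgeR fit.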

How the data were processed

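The authors deposited raw counts per gene, whole numbers without normalisation. Per the file headers, these deposited counts came from featureCounts 1.5.3 in stranded mode on an mm10 annotation. Reads had been trimmed with cutadapt and aligned with STAR, which kept up to 10 loci per read. A read with several loci or genes was left uncounted, so genes with near-identical copies read low. Duplicate removal is not given in the sources used here, and intervals cover counting error only.

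Symbols from GENCODE M21 were found for 31011 identifiers. The tests ran in edgeR 4.0.16 under R 4.3.3. After filterByExpr (12336 genes kept) and TMM scaling, the quasi-likelihood test set IP against total RNA with the replicate number as a block, two-sided, with Benjamini-Hochberg adjustment over all genes kept and a threshold of 0.05. SEs are the log2 ratio divided by the square root of F. Ratios within a pair are differences of log2 CPM with a prior count of 2. The block follows the study's methods, in which total RNA came from the same samples, and assumes that equal numbers mark the same sample. The deviations of same-numbered libraries from their group means had a Pearson correlation of 0.733. The biological coefficient of variation was 7.93% with the block and 29.7% without it. On simulated counts for this comparison over 12336 genes, the blocked fit recovered 41 of 100 genes changed 1.5-fold and 81 of 100 changed 2-fold. The blocked fit also called 4 genes that had not been changed, and the fit without the block recovered 0. The counts were drawn from the mean of each pair with the dispersion of the blocked fit. The pairing was thus built in, and the simulation does not test it.

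Alternatives were the fit without the block, library size alone, DESeq2 1.42.0, 2 other count filters, a GC and length offset, and leaving out each library or pair. Shared sequence (at least 50 bases at 98% identity) was sought among annotated transcripts with blastn 2.17.0. Members, classes, the lists of partners, related complexes and markers, and the tests were chosen with earlier results of these data known. Named with values were the members called, the highest and lowest ratio of each class, the catalytic subunits, the 3 highest and 3 lowest levels per length, the members that failed the filter and the partners called. Other genes were named after their values were seen.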

Additional observations from a re-analysis of the deposited data

How the results depend on the processing

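The pairing decided the calls. Without the replicate block, 0 members were called in place of 7, with 0 partners (2 higher and 1 lower with the block) and 0 genes of the whole table in place of 818 higher and 931 lower, although the member medians kept their values (0.21 over the 44). DESeq2 with the block called 0 members and 0 partners higher, and 158 genes higher and 382 lower in the whole table, but it gave no adjusted p for 7653 genes, among them Psma1, Psma5, Psmd10 and Psmf1. Without its independent filtering, an alternative chosen after seeing the data, it called 0 members, 0 partners in either direction, and 109 higher and 255 lower, with Psmd10 at an adjusted p of 0.121. Scaling by library size alone left 3 members (Psma2, Psmd10 and Psme3), 0 partners higher and 1 lower, and 283 genes higher against 878 lower, and the GC and length offset 3 members, 0 partners higher, and 482 genes higher and 412 lower. Without a low-count filter 6 members and 1 partner were called higher, and a minimum of 10 counts in every library left 43 members, without Psmd10, of which 6 were called.

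The core median of 0.32 was 0.24 with library size alone and 0.14 with the offset, and the activator median of 0.22 was 0.14 with library size alone and 0.39 without members that have near-identical sequence elsewhere. The median of all genes, 0.011, was -0.073 with library size alone, -0.0025 with DESeq2 with or without independent filtering, 0.076 without a filter, 0.0070 with the minimum count and -0.0046 with the offset.

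Leaving out 1 library uses fits without the block, in which the lone library is assumed to vary like the others. These called 0 members and 0 partners and, in the whole table, 0 genes higher and 1 to 20 lower. Without IP 1, IP 2, total RNA 1 and total RNA 2 in turn, the median was 0.45, -0.029, 0.022 and 0.43 for the core, 0.27, -0.067, -0.12 and 0.39 for the regulatory particle, 0.53, 0.16, 0.17 and 0.63 for the chaperones, and -0.0047, -0.0081, 0.036 and 0.019 for all genes. For the activators and inhibitor it was 0.38 without IP 1 and 0.36 without IP 2. Pair 1 and pair 2 alone gave 0.26 and 0.30 for the core, 0.34 and 0.25 for the activators and inhibitor, and 0.53 and 0.29 for the chaperones. Psma1 turned to -0.055 without IP 2 and -0.0016 without total RNA 1, and Psmb4 to -0.029 without IP 2. Without total RNA 1, Psmb4 was 0.12. Without IP 1 and total RNA 2 in turn, Psma1 had 0.79 and 1.07, and Psmb4 0.64 and 0.62. Within pair 1 and pair 2, Psma1 had 0.59 and 0.35, and Psmb4 0.26 and 0.41. A fit that leaves out a library has unequal replicates in its groups, so a difference between replicates enters the ratio. The part of that difference in these values was not tested. Depth limits Psmd10 most, with 6 and 4 counts in total RNA.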
